A study of Mus musculus with 3 samples.

Results

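Chromatin modifiers, remodelers and histones were followed between mouse spleen RNA and a common reference RNA. The genes were taken by symbol: every gene named by a single symbol in the platform annotation that begins with a root of a histone, high mobility group (HMG), histone deacetylase or sirtuin, lysine acetyltransferase, methyltransferase or demethylase, SWI/SNF, CHD or ARID, HP1 and Polycomb chromobox, bromodomain, ING, DNA methyltransferase, methyl-CpG binding or TET gene. The annotation held 65 such genes on 100 probes. Of these, 50 genes had at least 1 probe with a nonzero value on all 3 arrays (an exact 0 is read as no measurement), out of 6077 genes so measured in all, and the probes of a gene were averaged. The rule uses symbols and that requirement alone, although it was written with earlier results of these data known. The label promises histones, but only the linker histone H1f7 was measured, so the set is in practice one of chromatin enzymes, their partners and HMG proteins.

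The study has 1 group of 3 two-colour arrays. On each array, purchased spleen total RNA, amplified once into cRNA, was labelled with Cy5, and a purchased Universal Mouse Reference RNA (UMRR), a pool from mouse cell lines, was amplified the same way and labelled with Cy3. The labels name 1 product for each RNA, give no strain, age or number of animals, and record no dye swap, so the p-values reflect array-to-array variation, part or all of which may be technical, and dye and RNA cannot be told apart. The value is a deposited log ratio of unknown base and unknown numerator. Positive ratios are read here as probably higher in spleen, from the dyes and from spleen markers (positive for 4 of 4 B cell, 4 of 5 T cell, 4 of 4 macrophage, 4 of 4 erythroid and 2 of 2 neutrophil genes measured, with Cd3d at -0.85 as the exception) beside fibroblast and matrix genes (4 of 4 negative). The titles put the reference first, which could mean the opposite order. Markers of exocrine pancreas, an organ next to the spleen, were also positive (7 of 7 measured, median 4.54), and their part in the results below was not tested.

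Eukaryotic DNA is wound around histones, and chromatin is set by enzymes that write marks on histones (acetyltransferases, methyltransferases) or remove them (deacetylases, demethylases), by reader proteins that bind the marks, by ATP-driven remodelers that move or evict nucleosomes, and by methylation of DNA itself. These proteins act in nearly all cells, and several are known in lymphocytes and blood progenitors for setting lineage genes. In bulk RNA, fewer cells of a type and less RNA per cell cannot be told apart.

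The chromatin genes went both ways in equal number and mostly by small amounts. Of the 50 genes, 17 had a positive call, 17 had a negative call and 16 had none (limma, ratio against 0, Benjamini-Hochberg adjusted p under 0.05 over all 6077 genes). Among all genes tested 70.3% passed, 33.2% as positive and 37.1% as negative, so the 34 of 50 chromatin genes called (34.0% positive, 34.0% negative) lie near the background and the count is no result about them. The counts per role below rest on 1 to 14 genes, are to be read against the same shares, and were not tested as groups. Their median log ratio was -0.03, beside -0.03 for all genes, and it turned to 0.0018 with each array centred on its median. The lower and upper quartiles were -0.36 and 0.34, against -0.39 and 0.34 for all genes. A mean of at least 1 in either direction was seen for 3 chromatin genes (6%) and for 860 of all genes (14.2%), and the difference between these shares was not tested. The 3 arrays gave similar values over the 50 genes, with Pearson's r of 0.939, 0.953 and 0.893 for arrays 1 and 2, 1 and 3, and 2 and 3. Over all genes r was higher for each pair, at 0.962, 0.972 and 0.957 in the same order. These are given as a description since genes are not replicates.

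**Figure D1:**
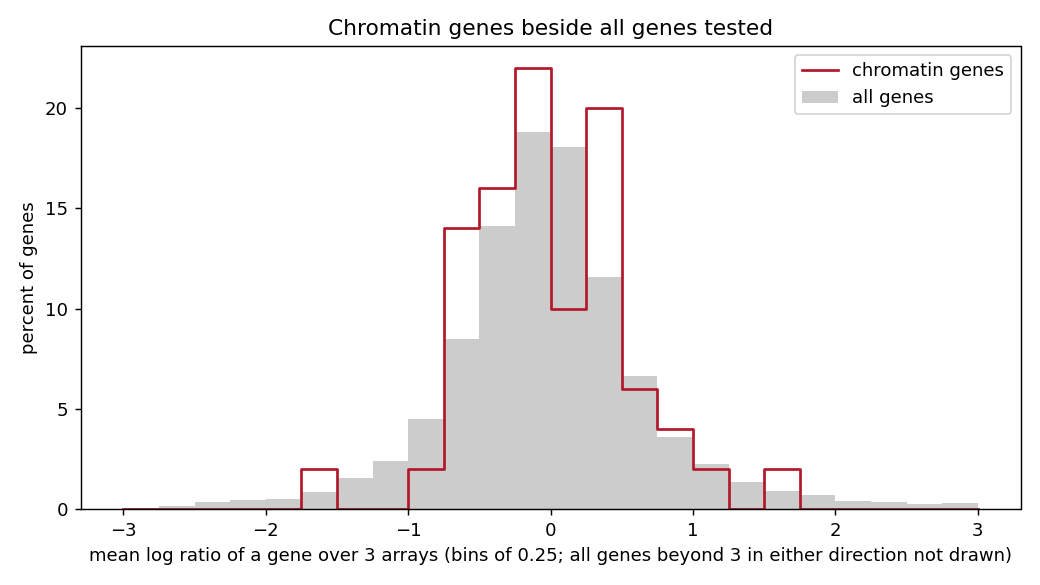
Percent of genes (vertical axis) in bins of 0.25 of the mean log ratio over 3 arrays (horizontal axis), with all 6077 genes as grey bars and the 50 chromatin genes as a red line. Both are centred close to 0, and the chromatin genes run from -1.57 to 1.65.

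Of the 34 called genes, 5 kept sign and call under every alternative processing tried: Cbx7, Kmt2e and Chd9 on the positive side, Cbx5 and Hmgn5 on the negative side. One of these alternatives, limma's test against a 1.5-fold change (values read as log2), by itself ended 29 of the 34 calls and so fixed these 5. Leaving it out, 19 genes kept sign and call: these 5 with Arid1a, Brd3, Cbx1, Chd2, Hdac3, Hdac10, Hmgb2, Kat8, Kdm2a, Kdm3a, Kdm3b, Kdm5b, Mbd6 and Smarca2. Without moderation of the variance 12 of the 34 calls ended (Arid3a, Arid5b, Chd8, Dnmt3l, Hdac5, Kmt2b, Setd3, Setd7, Sirt3, Smarcad1, Smarce1 and Tet1), and with 0 kept as a value 8 did (Arid3a, Chd8, Dnmt3l, Hdac5, Setd7, Smarcad1, Smarce1 and Tet1). Of these 8, only Chd8, Smarcad1 and Smarce1 had a probe at 0. Arid3a, Dnmt3l, Hdac5, Setd7 and Tet1 kept the same means, and only their adjusted p changed. That setting fits the variance over 7984 genes, including genes at 0 on all arrays. Probes were also corrected by subtracting a running median of ratios, taken over the probe itself and the 5 or 10 probe numbers on each side. This ended 7 and 6 calls. Since a probe is part of its own median, the step can pull a ratio toward 0, but ratios moved both ways. With 5 and 10 probe numbers Hdac10 went from 0.47 to 0.11 and 0.21, and Arid1a from 0.65 to 0.94 and 0.96. Why calls ended was not tested. Whether probe numbers follow position on the array was not checked. The window of 10 also turned 2 calls to the opposite sign (Kat14 and Sirt3), and Ing1, Ing5, Sirt2 and Smarcd3 were newly called with both windows.

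The DNA upstream of their transcription starts is shown to place these genes, for the 4 of them with an entry in the RefSeq promoter table (GRCm38.p6): the 250 bases before the start, read on the gene's own strand from 5′ to 3′, taking the most upstream start where the table lists several. Capitals mark GGGCGG, the GC box bound by Sp family factors, and CCAAT, the box bound by NF-Y, each on either strand, with no overlap between the marked matches.

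Cbx7, chr15:79932647-79932896, minus strand: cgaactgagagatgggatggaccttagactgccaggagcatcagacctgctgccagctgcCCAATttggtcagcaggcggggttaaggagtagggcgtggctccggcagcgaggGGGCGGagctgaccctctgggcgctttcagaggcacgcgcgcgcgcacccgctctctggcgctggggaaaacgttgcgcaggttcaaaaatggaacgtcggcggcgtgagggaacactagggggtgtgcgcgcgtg
Chd9, chr8:90828585-90828834, plus strand: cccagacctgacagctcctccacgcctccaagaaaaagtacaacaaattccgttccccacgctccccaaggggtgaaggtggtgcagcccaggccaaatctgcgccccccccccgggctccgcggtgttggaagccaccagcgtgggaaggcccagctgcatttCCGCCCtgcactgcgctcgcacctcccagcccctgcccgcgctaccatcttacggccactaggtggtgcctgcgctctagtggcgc
Cbx5, chr15:103239853-103240102, minus strand: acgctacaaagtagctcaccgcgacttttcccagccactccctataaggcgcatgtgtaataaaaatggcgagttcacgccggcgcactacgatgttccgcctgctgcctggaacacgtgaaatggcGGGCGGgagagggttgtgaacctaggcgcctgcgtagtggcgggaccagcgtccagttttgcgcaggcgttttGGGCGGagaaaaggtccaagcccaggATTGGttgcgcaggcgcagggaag
Hmgn5, chrX:109013381-109013630, minus strand: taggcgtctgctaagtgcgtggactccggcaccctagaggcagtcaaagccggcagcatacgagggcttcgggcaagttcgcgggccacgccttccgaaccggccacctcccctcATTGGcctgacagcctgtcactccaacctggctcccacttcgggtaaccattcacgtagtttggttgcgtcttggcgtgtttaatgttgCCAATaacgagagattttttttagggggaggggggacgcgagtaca

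The 4 windows held CpG dinucleotides in number, with 23 for Cbx7, 16 for Chd9, 22 for Cbx5 and 18 for Hmgn5. GC boxes numbered 1, 1, 2 and 0 in that order, and CCAAT boxes 1, 0, 1 and 2. Of the 50 chromatin genes, 37 had an entry, and 30 of these (81.1%) held GGGCGG in at least 1 such window, against 53.9% of the 4916 tested genes with an entry and 35.4% of all 27025 genes in the table. CCAAT was held by 19 of 37 (51.4%), 39.7% and 37.5% respectively. Counted by window, 32.7% and 33.9% of all 32851 windows held them. The median of the highest CpG count per gene was 21 for the 37 chromatin genes, 14 for the tested genes and 6 for all genes in the table. The counts of the 4 windows shown are for the most upstream start alone, so they are not the same measure. These are descriptions of the DNA, and a match is not evidence of binding.

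**Figure D2:**
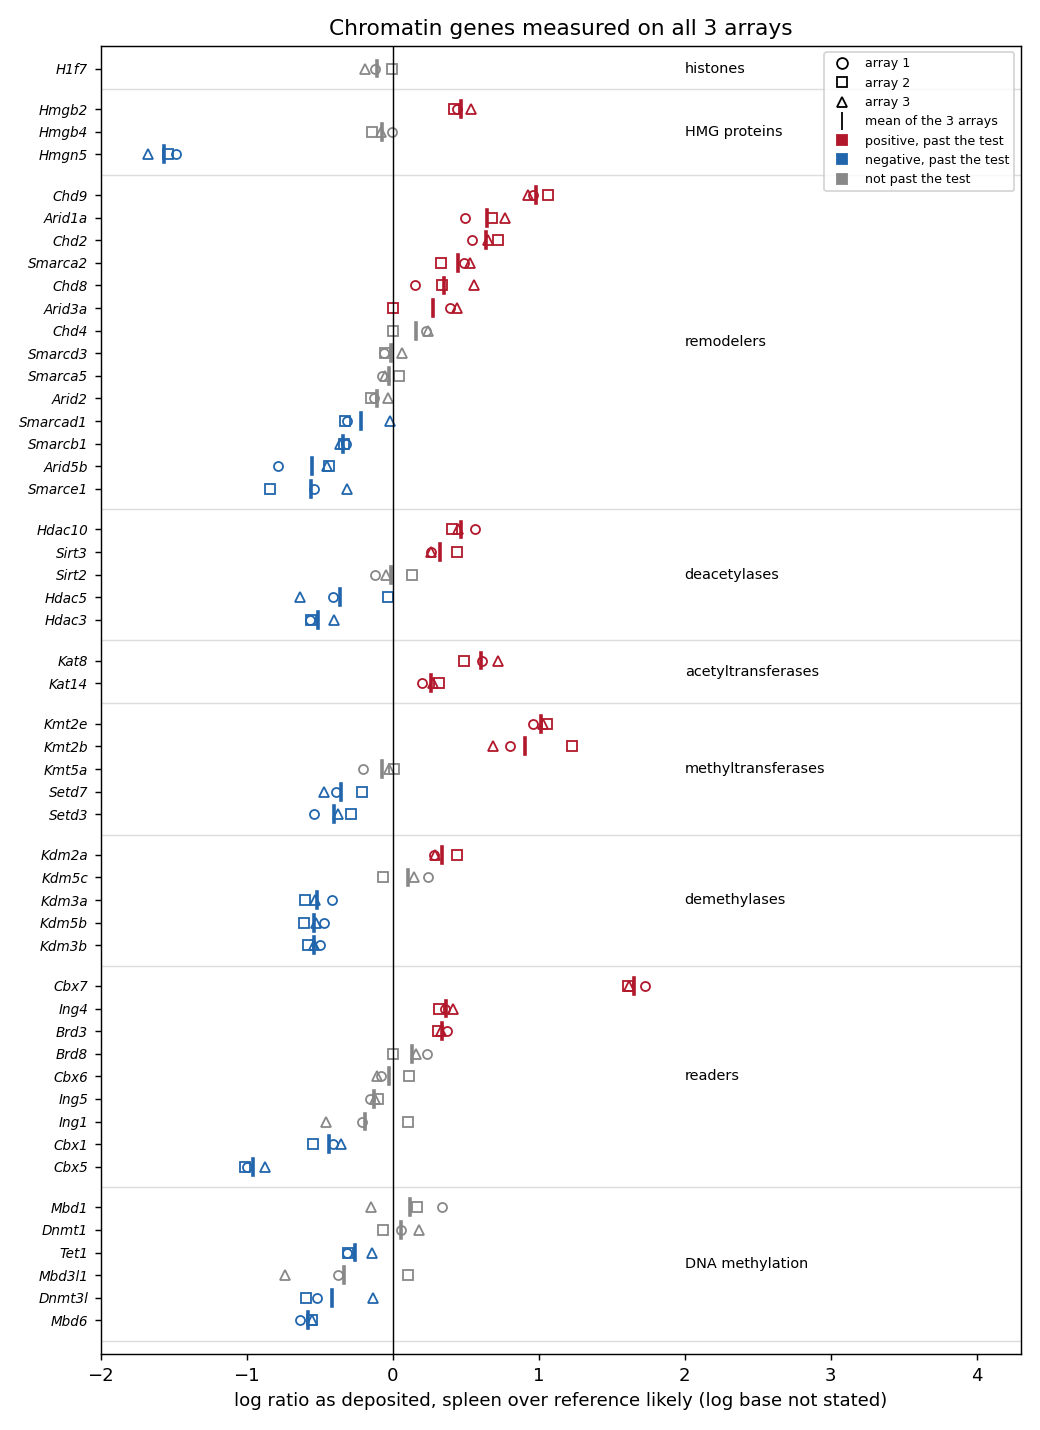
Log ratio as deposited (horizontal axis) of each of the 50 chromatin genes by role, with a symbol per array, a bar at the mean of the 3 arrays, and colour for the limma call. Cbx7 at 1.65 and Hmgn5 at -1.57 stand farthest from 0, and the 3 arrays of each lie close together.

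Reader proteins held the widest contrast. The chromobox family divides into HP1 proteins, which bind the methylated histone H3 of heterochromatin, and Polycomb subunits, which bind the mark laid by Polycomb repressive complexes. Cbx7, a Polycomb chromobox protein, had log ratios of 1.73, 1.61 and 1.62 on arrays 1 to 3. All 3 values were high and close together, and the mean of 1.65 ± 0.066 (SD, n = 3) ranked 211 from the top of 6077 genes (limma adjusted p = 9.41e-07). The mean corresponds to a 3.15-fold ratio if the logs are base 2 and a 5.23-fold ratio if they are natural. Cbx5, the HP1 alpha protein, had -0.99, -1.01 and -0.87. Every array was negative, with a mean of -0.96 ± 0.076 (SD, n = 3), 1.94-fold in base 2 or 2.61-fold in natural logs (limma adjusted p = 1.38e-05). Cbx1, the HP1 beta protein, was also negative, at -0.41, -0.54 and -0.35 (limma adjusted p = 0.000963). Cbx6, another Polycomb chromobox gene, had -0.08, 0.11 and -0.11 and did not pass. With running medians over 5 and 10 probe numbers removed, Cbx1 was -0.21 and -0.26. The HP1 gamma gene Cbx3 had values on 2 arrays alone (-0.14 and -0.06) and was not tested. Related chromobox transcripts share sequence, and the probes' specificity was not analysed here.

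Among other readers, Ing4, a subunit of HBO1 acetyltransferase complexes that binds methylated H3, had 0.36, 0.32 and 0.41, with a mean of 0.36 ± 0.045 (SD, n = 3). Brd3, a BET bromodomain protein that binds acetylated histones, had 0.37, 0.31 and 0.33, with a mean of 0.34 ± 0.034 (SD, n = 3). Both passed (limma adjusted p = 0.00154 and 0.0021), but Brd3 rests on 1 of 4 probes, the other three being 0 on all arrays. Ing4 became 0.21 when probes measured on 2 arrays were let in and 0.07, no longer past the test, with the running median over 10 probe numbers removed. Brd8 (0.13), Ing5 (-0.13; probe means -0.17, -0.10 and -0.11) and Ing1 (-0.19) did not pass. Without array 2, Brd8 (0.20) and Ing1 (-0.34) passed, with limma adjusted p of 0.0446 and 0.0119. The 9 readers held 3 positive and 2 negative calls (background 33.2% positive, 37.1% negative), and their median was -0.02. Ing2, at 0 on array 2, had -0.37 and -0.20 on the others.

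Genes with a methyltransferase symbol held both signs, and the symbol alone does not show that a protein writes a histone mark. Kmt2e (MLL5), an MLL family protein with roles in blood cell development, had 0.96, 1.05 and 1.03. The arrays lay close together, and the mean was 1.02 ± 0.048 (SD, n = 3), 2.02-fold in base 2 or 2.76-fold in natural logs (limma adjusted p = 8.49e-06). A further Kmt2e probe was 0 on all arrays, and with 0 kept as a value the mean was 0.51. Kmt2b, an H3K4 methyltransferase, had 0.80, 1.23 and 0.69, high on array 2, and a mean of 0.91 ± 0.29 (SD, n = 3; limma adjusted p = 0.00023). Its call ended without moderation of the variance (adjusted p = 0.0617). On the negative side, Setd3, which methylates a histidine of actin, had -0.54, -0.29 and -0.37, and Setd7, a lysine methyltransferase of H3 and of other proteins, had -0.39, -0.21 and -0.47 (limma adjusted p = 0.00201 and 0.00388). Setd3 did not pass with a running median over 5 or 10 probe numbers removed (-0.09 and -0.12), and Setd7 did not with 0 kept (same mean, adjusted p = 0.0523). Kmt5a, which places a single methyl group on H4 lysine, did not pass (-0.07). Setd5 and Setd6 were at 0 on all arrays.

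Both acetyltransferase genes measured were positive (background 33.2% positive). Kat8 (MOF), which acetylates histone H4, had 0.61, 0.49 and 0.72, with a mean of 0.61 ± 0.12 (SD, n = 3; limma adjusted p = 0.000215). A second Kat8 probe had a value on array 2 alone (0.59), and with 0 kept the mean was 0.40. Kat14, a subunit of the ATAC complex, had 0.20, 0.32 and 0.28 (limma adjusted p = 0.00774), but turned to -0.15 with the running median over 10 probe numbers removed and to 0.01 with 5. Kat2a was at 0 on all arrays and was not analysed.

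Erasers of histone marks had 3 negative and 1 positive call among 5 demethylases, and 2 of each among 5 deacetylases (background 37.1% negative, 33.2% positive). Kdm3a and Kdm3b, which remove methyl groups from H3K9, and Kdm5b, which removes them from H3K4, were each negative. Kdm3a had -0.42, -0.60 and -0.53, Kdm3b had -0.50, -0.58 and -0.54, and Kdm5b had -0.47, -0.61 and -0.53. Each was lowest on array 2, and the means were -0.52 ± 0.093, -0.54 ± 0.042 and -0.54 ± 0.070 (SD, n = 3), with limma adjusted p between 0.00020 and 0.000381. With the running median over 10 probe numbers removed the means lay farther apart, at -0.66, -0.48 and -0.80. With 0 kept the Kdm3b mean was -0.27 since a second probe was 0 on all arrays. Kdm2a, an H3K36 demethylase that binds CpG-rich DNA, was positive at 0.28, 0.44 and 0.29 (mean 0.34 ± 0.089, SD, n = 3; limma adjusted p = 0.00311), and was 0.12 with a running median over 5 probe numbers removed. The X-linked Kdm5c did not pass (0.24, -0.07 and 0.15), and did so without array 2 (0.20, adjusted p = 0.0488). Kdm1a was at 0 on all arrays.

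Hdac3, the catalytic subunit of the NCoR and SMRT corepressors, had -0.57, -0.56 and -0.40, with a mean of -0.51 ± 0.092 (SD, n = 3; limma adjusted p = 0.000399). Hdac10, known as a polyamine deacetylase, had 0.56, 0.40 and 0.45, with a mean of 0.47 ± 0.081 (SD, n = 3; limma adjusted p = 0.000541), and was 0.11 and 0.21 with running medians over 5 and 10 probe numbers removed. Sirt3, a mitochondrial deacetylase that acts mainly outside chromatin, had 0.26, 0.44 and 0.26 (limma adjusted p = 0.00427), but turned to -0.29 with the window of 10. Hdac5, a class IIa deacetylase, had -0.41, -0.04 and -0.63, so array 2 stood apart, and its call (mean -0.36, limma adjusted p = 0.0228) ended without array 1 (-0.33, adjusted p = 0.0992), without array 3 (-0.22, adjusted p = 0.0856) and with the window of 10 (-0.01, adjusted p = 0.797). Sirt2, a mainly cytosolic deacetylase, did not pass on average (-0.01) and its 2 probes were called in opposite directions. Probe means were -0.29 (limma adjusted p over probes = 0.0392) and 0.27 (0.00974), and no other chromatin gene had probes called in both directions. The negative probe had -0.47, -0.0007 and -0.41, so array 2 was close to 0, and the positive probe had 0.23, 0.26 and 0.32. Hdac1 had values on 2 arrays alone (-0.41 and -0.40) and Hdac8 on 1 (0.08).

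Among ATP-driven remodelers, their partners and further ARID genes, 6 of 14 genes had a positive call and 4 a negative call (background 33.2% positive, 37.1% negative). The positive side held CHD family genes, Arid3a and some subunits of SWI/SNF, which slides and ejects nucleosomes. Other SWI/SNF subunits were negative or had no call. Chd9, a CHD remodeler, had 0.96, 1.06 and 0.93, with a mean of 0.98 ± 0.072 (SD, n = 3), 1.98-fold in base 2 or 2.67-fold in natural logs (limma adjusted p = 1.18e-05). Its second probe was 0 on all arrays, and with 0 kept the mean was 0.49. Chd2 had 0.54, 0.72 and 0.66 over 2 probes, whose means of 0.60 and 0.68 were close (limma adjusted p = 0.000122). Chd8, a repressor of beta-catenin targets, spread from 0.15 to 0.55 (mean 0.35 ± 0.20, SD, n = 3), and its call ended without array 3 (0.25, adjusted p = 0.0560). Chd4, the NuRD ATPase, had 0.23, 0.00 and 0.24 and did not pass, but did without array 2 (0.24, adjusted p = 0.0219).

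SWI/SNF subunits did not share a direction. Arid1a, the DNA-binding subunit of the BAF form, had 0.49, 0.68 and 0.77, with a mean of 0.65 ± 0.14 (SD, n = 3; limma adjusted p = 0.000204). Smarca2 (BRM), an ATPase of the complex, had 0.49, 0.33 and 0.53 (mean 0.45 ± 0.11, SD, n = 3; limma adjusted p = 0.000894), and both of its probes were positive. The core subunit Smarcb1 was negative on each array (-0.32, -0.34 and -0.36), with limma adjusted p = 0.00197, and its 2 probes gave -0.41 and -0.27. Smarce1, a subunit with an HMG box, had -0.54, -0.84 and -0.31 (mean -0.56 ± 0.26, SD, n = 3; limma adjusted p = 0.00198). The call of Smarcb1 ended with running medians over 5 and 10 probe numbers removed (-0.10 and -0.12), and that of Smarce1 did so as well (-0.08 and -0.46) and with 0 kept (-0.28, adjusted p = 0.0768). Arid2 of the PBAF form (-0.11), Smarcd3 (-0.01) and the ISWI ATPase Smarca5 (-0.03) did not pass. The ARID proteins outside SWI/SNF went opposite ways: Arid5b, a partner of a histone demethylase, had -0.78, -0.43 and -0.45 (limma adjusted p = 0.000924), while Arid3a (Bright), which binds the immunoglobulin heavy chain locus in B cells, had 0.39, -0.00 and 0.44. Arid3a was the 1 called gene without the same sign on all arrays, although its array 2 value (-0.0008) was close to 0. The call of Arid3a (limma adjusted p = 0.0353) ended without array 1 (0.22, adjusted p = 0.176) and without array 3 (0.20, adjusted p = 0.132), while without array 2 the mean was 0.42. Smarcad1 had the weakest call of the set (mean -0.22, limma adjusted p = 0.0444), which ended without array 1 (-0.17, adjusted p = 0.207), without array 2 (-0.16, adjusted p = 0.149) and with each array centred on its median (-0.19, adjusted p = 0.0702). Chd1, Chd3 and Smarcc2 were 0 on array 2 and positive on the other arrays (0.35 and 0.33, 0.60 and 0.56, 0.78 and 0.47).

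Architectural proteins covered the lowest ratio. Hmgn5, an X-linked nucleosome-binding HMGN protein that loosens chromatin compacted by linker histone, had -1.49, -1.54 and -1.68. All 3 arrays lay far below 0, and the mean was -1.57 ± 0.10 (SD, n = 3), rank 138 from the bottom of 6077 genes (limma adjusted p = 1.53e-06). The size corresponds to 2.96-fold in base 2 and 4.79-fold in natural logs. Hmgb2, a DNA-bending HMG-box protein, had 0.44, 0.42 and 0.54 over 3 probes (mean 0.47 ± 0.063, SD, n = 3; limma adjusted p = 0.000492). Its probe means were 0.71, 0.56 and 0.12, the last not past the probe test. Hmgb4, an HMG-box protein of testis, was close to 0 (-0.07), as was the testis linker histone H1f7 (-0.12, -0.01 and -0.19). The linker histone H1f5 and Hmga2 were 0 on all arrays, and Hmgn1 had a value on array 3 alone (-0.999).

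**Figure D3:**
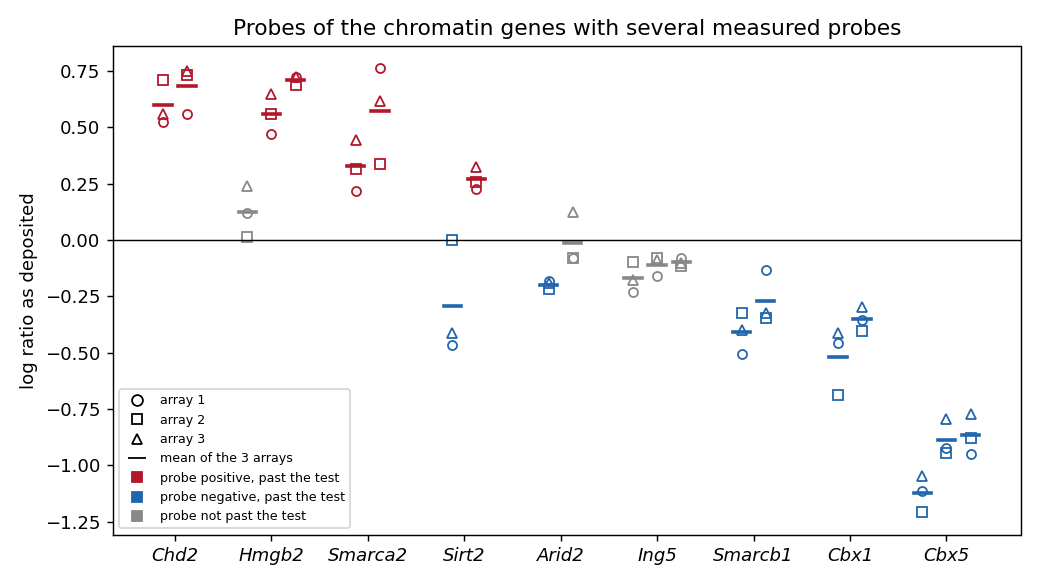
Log ratio as deposited (vertical axis) of each measured probe of the 9 chromatin genes with several probes, with a symbol per array, a bar at the mean of the 3 arrays and colour for the probe's limma call. The 3 Cbx5 probes lie between -1.12 and -0.87, while the 2 Sirt2 probes fall on either side of 0.

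Of 6 genes placed under DNA methylation by symbol, 3 were called negative and 3 had no call (background 37.1% negative, 33.2% positive). Here too the symbol alone does not show that a protein binds or changes methylated DNA. Mbd6, a methyl-CpG binding domain protein of a deubiquitinase complex, had -0.63, -0.55 and -0.55 (mean -0.58 ± 0.047, SD, n = 3; limma adjusted p = 0.000143). Dnmt3l, the germ cell cofactor of the de novo methyltransferases, had -0.52, -0.60 and -0.14, high on array 3 (mean -0.42 ± 0.25, SD, n = 3; limma adjusted p = 0.0067). Tet1, which oxidises methylcytosine, had -0.31, -0.31 and -0.14 (limma adjusted p = 0.0119), and its call ended without array 1 (-0.23, adjusted p = 0.0788). The call of Dnmt3l ended with 0 kept (same mean, adjusted p = 0.113) and with a running median over 5 probe numbers removed (-0.24, adjusted p = 0.105). The maintenance methyltransferase Dnmt1 had 0.06, -0.07 and 0.18 and did not pass, nor did Mbd1 (0.12). Mbd3l1, a testis gene, spread from -0.74 to 0.11 and did not pass, but did without array 2 (-0.56, adjusted p = 0.00284). Mbd4, a DNA glycosylase for deaminated methylcytosine, had 0.84 and 0.77 on arrays 1 and 3 and 0 on array 2, and was not tested.

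**Figure D4:**
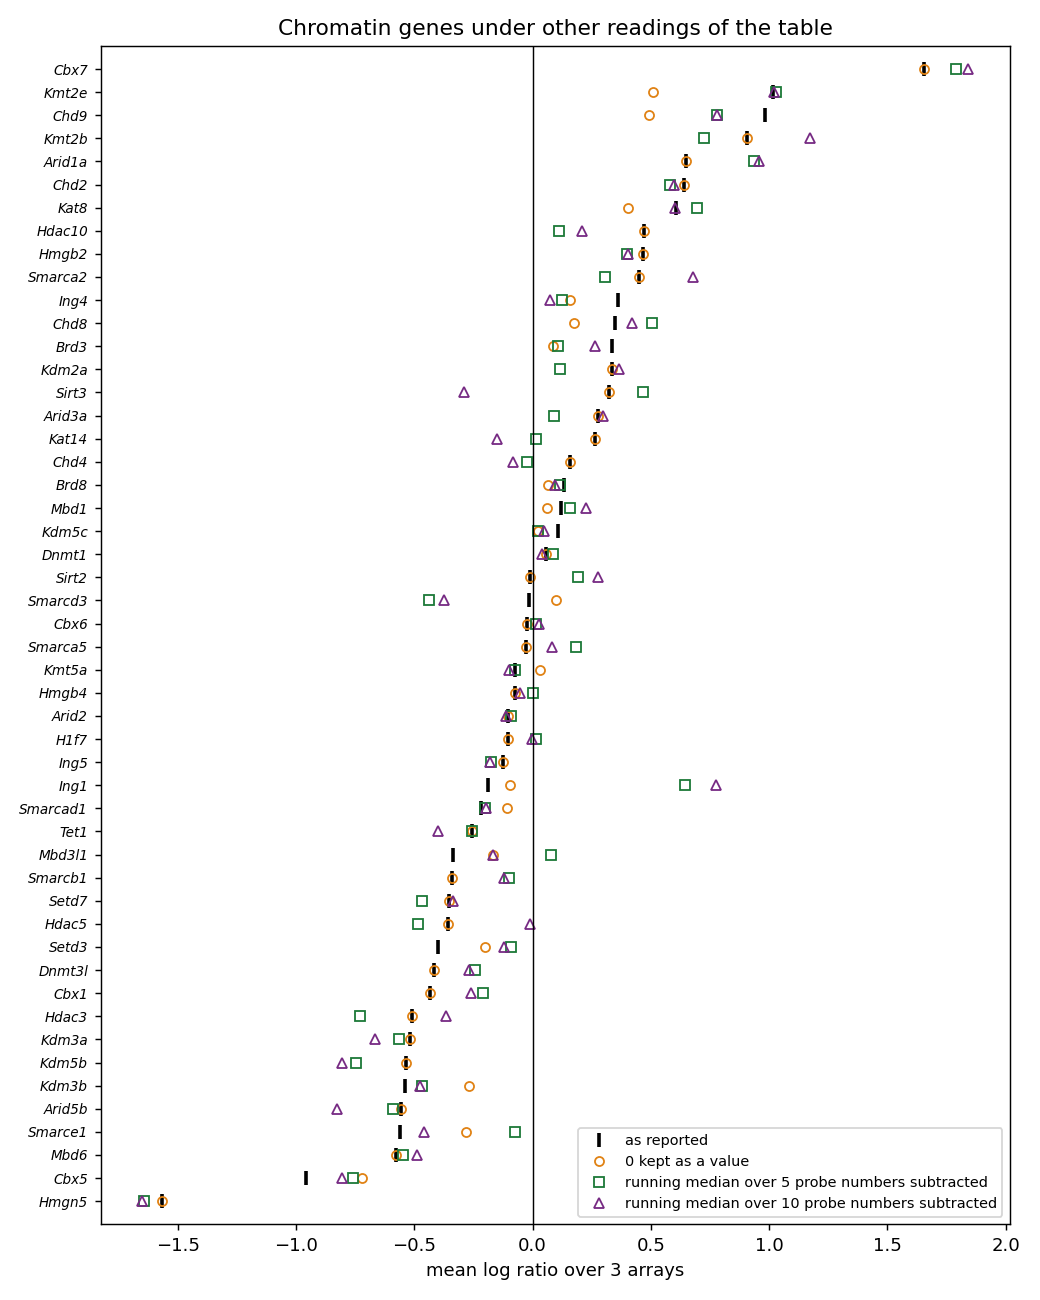
Mean log ratio over 3 arrays (horizontal axis) of the 50 chromatin genes, ordered by the reported mean (black bar), with 0 kept as a value and with the running median of the probe itself and 5 or 10 neighbouring probe numbers per side subtracted. Cbx7 and Hmgn5 stay far from 0 in each, whereas Ing1 moves from -0.19 to 0.64 and 0.77.

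Chromatin genes whose symbols lie outside those roots were counted from separate lists. Of 57 measured, 19 had a positive call (33.3%) and 22 a negative one (38.6%), close to the 33.2% and 37.1% of all genes and so no result about them. The median was 0.00. The positive count was 11 with 0 kept and 9 without moderation of the variance. Cecr2, a bromodomain partner of ISWI remodelers, had 1.97, 1.89 and 2.01 (mean 1.96 ± 0.063, SD, n = 3; limma adjusted p = 4.42e-07). In the same list of acetyltransferases and bromodomain genes (4 of 9 positive, 3 negative), the nuclear receptor coactivator Ncoa3 had 1.33, the ISWI partner Baz1b -0.70 and the ATPase Atad2 -0.53. The third negative gene there was Bub3 (-0.18), a spindle checkpoint gene listed by mistake, which is also counted in the 57 and the 22 above. Jmjd1c, a relative of Kdm3a and Kdm3b, was positive at 1.13, 1.00 and 1.10, the opposite sign to both, and Jmjd6 was negative (-0.92). Sap30 and Sap18, subunits of the Sin3 deacetylase complex, were negative at -1.23 and -0.70, and Tbl1xr1 of the NCoR complex was positive at 0.75. Of 7 methyltransferase and MLL partner genes 5 were negative, led by the H3K9 methyltransferase Suv39h2 (-0.64) and by Prmt3 (-0.48), with Prmt7 positive (0.63). Of 10 genes listed as histone chaperones 5 were positive and 2 negative, with Slbp at 0.67, Anp32b at 0.50, Nap1l1 at -0.43 and Nasp at -0.18. Slbp, which binds histone mRNA, is counted in that list, and whether each listed gene is a chaperone was not checked. Of 10 genes listed as remodelling subunits 4 were positive, led by Actl6a (0.74) and Pole4 (0.52), and 2 negative, Dmap1 (-0.22) and Pole3 (-0.21). Pole3 and Pole4 are DNA polymerase epsilon genes, and the place of each listed gene in a remodeler was not checked. Of 6 Polycomb group genes Yy1 (0.57) and Bap1 (0.32) were positive and Pcgf5 (-0.38) negative. Of 5 further histone and HMG-box genes 3 were negative, led by Tox (-0.78) and Tox4 (-0.41), and the centromeric histone Cenpa did not pass (-0.23). Of 4 DNA methylation genes, Uhrf1, the partner of Dnmt1, was negative (-0.53), as were Gadd45a (-0.93) and Gadd45b (-0.67), and Uhrf2 was positive (0.37).

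Several chromatin genes are known to follow cell division, so a list of S phase and mitosis genes is given beside them. Of 7 measured, 3 were negative (Cdk1 -1.26, Cdc20 -1.03, Mcm4 -0.19), Ccnb2 was positive (0.37) and 3 had no call (background 37.1% negative, 33.2% positive). The list's median was -0.12, and the part of dividing cells in the chromatin ratios was not tested.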

How the data were processed

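A table from the authors, deposited for the whole series, lists log ratios of 16273 probes on each array. The sources used here do not give the array type, image processing, normalization, log base or numerator. Signal over background is unknown, and the number of arrays limits the precision. An exact 0 was read as no measurement. Probes with a value on all 3 arrays (11086) and 1 symbol (8591) were averaged into 6077 genes. Symbols came from the platform annotation, and all 50 genes were found under the same symbol in RefSeq GRCm38.p6. The test of each mean against 0 was limma's (version 3.58.1, R 4.3.3, intercept fit, moderated variance, two-sided). Its code was run on data simulated from limma's own variance model, which cannot check how well that model holds on these arrays. Figures used matplotlib 3.10.9.

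The members and lists were chosen with earlier results of these data known. Genes named were, per role, up to 5 called on each side by absolute mean, genes with conflicting probes and those with most probes; per other list, up to 2 on each side; further members are given by value. A list gene was matched through a synonym only if its symbol is no current one, a condition added after a mismatch was seen. The list of acetyltransferase and bromodomain genes also holds Bub3, a spindle checkpoint gene. Alternatives were centring, scaling, quantile normalization, probes on at least 2 arrays, median over probes, 0 kept, running medians over 5 and 10 probe numbers, robust or no moderation, a threshold of 0.01, limma's treat at 1.5-fold (base 2), and leaving out each array.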

Additional observations from a re-analysis of the deposited data

How the results depend on the processing

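Against a 1.5-fold change in base 2, 3 positive and 2 negative chromatin genes were left, with 3 and 3 among the other chromatin genes. Without moderation of the variance 10 negative chromatin genes passed, and 9 positive other chromatin genes. With 0 kept 11 positive other chromatin genes passed. The median of the chromatin genes turned to 0.0018 with each array centred and to 0.015 with the running median over 5 probe numbers removed, and lay between -0.073 and -0.0016 when 1 array was left out, lowest without array 2. With the running median over 10 probe numbers removed Sirt3 turned to -0.29, Kat14 to -0.15, Sirt2 to 0.28 and Ing1 to 0.77, and with 5 probe numbers Sirt2 turned to 0.19, Ing1 to 0.64 and Smarca5 to 0.18. That median includes the ratios of the probe itself and of neighbouring probes, so it can remove real differences. The cause of these changes was not tested. All other counts stayed within 1.5 times the reported ones under the alternatives run. Leaving out 1 array gave 15 to 20 positive and 14 to 18 negative chromatin genes, and 14 to 16 and 16 to 24 other chromatin genes. No paired analysis was possible because there is 1 group, whose ratios already pair both RNAs on each array.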

Other observations

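Probes of the same accession did not always share a value. Kdm3b and Setd3 were each represented by 2 probes with 1 accession: for each, 1 probe had a value on all 3 arrays (means of -0.54 and -0.40) and the other was 0 on all 3. Over the table, 260 accessions had exactly 2 probes. Both were measured on all arrays for 102 of them, and for 60 (23.1%) 1 probe was measured on all arrays and the other was 0 on all. Where both were measured, their means differed by a median of 0.21 and had opposite signs for 25 of 102 accessions.

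Array 2 held the missing value of all 7 chromatin genes measured on 2 arrays alone (Cbx3, Chd1, Chd3, Hdac1, Ing2, Mbd4 and Smarcc2). Counted by probe, array 2 held the 0 for 8 of 9 probes of the annotated chromatin genes that were 0 on exactly 1 array, the other being a Smarcd3 probe at 0 on array 1, and for 551 of 1142 such probes over the whole table (48.2%). Among the 62 measured probes of chromatin genes, 6 lay within 0.01 of 0 on array 2, 1 on array 1 and 0 on array 3, against 176, 161 and 167 of 11086 probes in all. The 6 on array 2 were probes of Arid3a, Brd8, Chd4, H1f7, Kmt5a and Sirt2.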
